A study of Callosobruchus maculatus with 24 samples.

Results

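The body parts of virgin males were compared in Callosobruchus maculatus, a seed beetle: 3 libraries of abdomens against 3 libraries of combined heads and thoraces, chosen by their labels and making up 6 of the 24 RNA-seq libraries of the series. All beetles of the series were of the strain South India. The other groups were mated males and virgin and mated females, each with 3 libraries per body part, and they served here as comparison groups or set the gene lists. Frozen beetles were divided between abdomen and thorax on ice, so each library is a mixture of whole organs. Neither the beetles' age, nor how many were pooled per library, nor how they were mated is given in the sources used here. The labels do not say that replicate libraries stem from separate cultures, and p-values therefore measure only how far these samples vary, which may be technical variation. In such bulk samples fewer cells of a type and less RNA per cell cannot be told apart.

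In insects the abdomen of a male holds the testes and accessory glands, which make sperm and seminal fluid, together with the fat body, an organ of storage and metabolism, and most of the gut. The head and thorax hold the brain, the eyes and antennae, and the muscles that move the wings and legs. Many genes of the testes and accessory glands are active in males only. The deposited tables do not pair their gene IDs with names. The tissue labels could therefore not be checked against known markers, no role is given to any ID, and genes are described through lists set by the other beetles of the series.

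Total counts in the 6 libraries ran from 7851662 to 9659081, and before scaling a gene at 1 CPM (its count relative to the library total) rested on 7.85 to 9.66 counts. Levels below are CPM scaled by TMM factors, which correct for differences in composition and lay between 0.867 and 0.951 in these libraries. Because factors below 1 raise every CPM of a library, shares given as percent of normalised counts do not sum to 100%: over all tested genes they came to 107.2% in abdomens and 111.7% in heads and thoraces. Libraries of a group differed by more than sampling noise (lowest chi-square per degree of freedom 6.59). Abdomens resembled each other evenly, with Pearson correlations of log CPM across genes from 0.954 to 0.955. Head and thorax replicates 2 and 3 correlated at 0.952, but replicate 1 only at 0.912 and 0.928 with them. That library stands apart, and its values are described first.

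A list of 955 male-limited genes was built without any virgin male library: its members had at least 5 CPM in the abdomens of mated males, and abdomens of virgin and of mated females each stood 16-fold or more below that. No limit was set on heads and thoraces, so the name refers to abdomens only. For the 409 members at 50 CPM or more in mated male abdomens, the level in each virgin male head and thorax library was set against the mean of the 3 virgin male abdomens. In replicate 1 the median was 6.19% of the abdominal level (quartiles 4.74% and 8.24%). In replicate 2 it was 0.034% (quartiles 0 and 0.201%), and in replicate 3 it was 0.552% (quartiles 0.244% and 0.955%). Replicate 1 thus stood far above the other two at most of these genes, and its ratios lay close together, with 287 of 409 within 2-fold of the median. Replicate 3 showed a lower peak of the same form, with 217 genes within 2-fold of its own median, while replicate 2 had 73. In the same measure, mated male heads and thoraces had medians of 0.101% to 0.371%. Female heads and thoraces, set against the male abdomens of their mating status, had 0.042% to 0.236%.

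**Figure D1:**
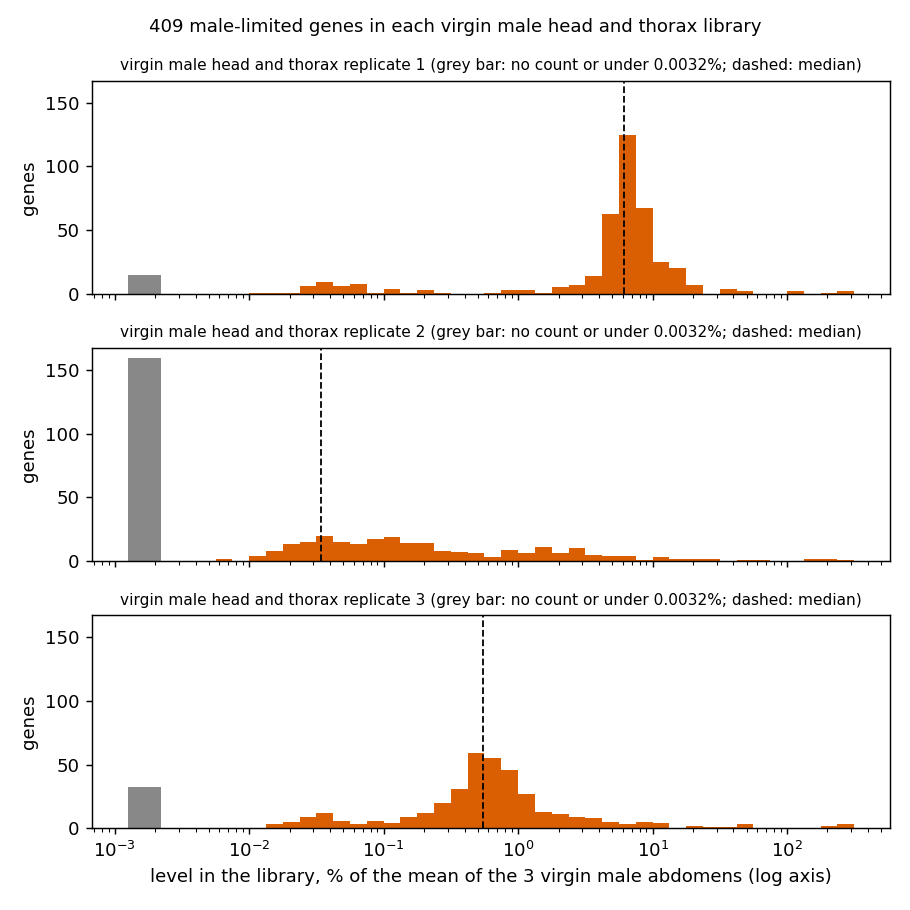
Histograms of the level of 409 male-limited genes in each virgin male head and thorax library, as percent of the mean of the 3 virgin male abdomens on a log axis; the y axis counts genes, the dashed line is the median and the grey bar holds genes with no count. Replicate 1 has a narrow peak at 6.19%, replicate 3 a lower one at 0.552%, and in replicate 2 the largest single bar is that of genes with no count (159 of 409).

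The raised level in replicate 1 did not extend to all abdominal genes. Grouped by their ratio in that library, the 287 members near the median summed to 89775 ± 5385 CPM (SD, n = 3) in virgin male abdomens, and to 5694 CPM in head and thorax replicate 1, 288.8 CPM in replicate 2 and 699.6 CPM in replicate 3. In virgin female heads and thoraces they summed to 276.8 ± 4.04 CPM (SD, n = 3), so replicate 2 was near the level found in females. A further 57 members, which included the most abundant male-limited gene and summed to 158421 ± 11404 CPM in the abdomens, stayed under 0.5% in replicate 1. Their sum there was 67.8 CPM, against 38.4 and 47.0 CPM in replicates 2 and 3 and 50.2 ± 8.88 CPM in virgin female heads and thoraces. Another 45 members stood more than 2-fold above the median in replicate 1, and 20 lay between the lowest class and the middle one. Some of the 45 were raised mainly in replicate 1, such as TR26246|c8_g1 at 18.16%, 0.0111% and 0.2745% in replicates 1, 2 and 3. Others were high in all 3, such as TR64218|c6_g1 at 55.04%, 59.48% and 49.2%. All these genes were grouped by their values in replicate 1, so the grouping is a description. The 69 genes that were abdominal in all other beetles (below) had a median ratio of 1.58% in replicate 1, 0.24% in replicate 2 and 0.833% in replicate 3. Abdominal material carried into head and thorax replicate 1 as the source of these levels was not tested. The main counts and lists below are given with and without this library.

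The body parts of virgin males differed in about as many genes as they did not, with more large differences on the abdominal side. Of 15558 genes tested with edgeR's quasi-likelihood test (adjusted p at most 0.05), 4239 were higher in the abdomen (27.2%) and 3894 higher in the head and thorax (25%), 52.3% in all. Without any 1 of the 6 libraries 47.4% to 48.2% were called, and 48.6% with a replicate block. The split between the sides moved with the processing. It was 4616 and 3486 under DESeq2's size factors and 5222 and 2988 without the 10 most abundant genes. With transcript counts summed to genes it was 3954 and 4028. Of the 4239 and 3894 genes, 2390 and 1911 reached a fold of at least 2, and 1389 and 476 one of at least 8. The median log2 fold change was 1.28 among genes higher in the abdomen and -0.98 among those higher in the head and thorax. Leaving out head and thorax replicate 1 moved mainly the largest abdominal folds. Without it 4202 and 3519 genes were called, 7427 of them with the same direction as before. Folds against a body part with no count depend on the fit, so such genes were set at the fold that a floor of 3 counts over the group allows. On that scale 1367 called genes were at 8-fold or more in the abdomen with that library and 1367 without it, but genes at 64-fold or more in the abdomen went from 192 to 758, where mated males had 774. Those at 64-fold or more in the head and thorax numbered 59 with that library and 60 without it.

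Called genes carried most of the RNA. Genes called higher in the abdomen made up 60.04 ± 1.65% of normalised counts in abdomens against 16.3 ± 1.10% in heads and thoraces (SD, n = 3 each). Those called higher in the head and thorax made up 30.04 ± 0.880% and 77.8 ± 2.68%. The 1389 genes at 8-fold or more in the abdomen alone held 32.6 ± 1.12% of abdominal counts, while the 476 at 8-fold or more in the head and thorax held 9.11 ± 0.280% of counts there. All these sets were chosen by their calls and folds in the same libraries, so their sums are a description. In it the head and thorax was marked by smaller differences in abundant genes. Counts were also somewhat more concentrated there: the 100 most abundant genes of each library took 34.3% to 36.4% of raw counts in abdomens and 40.4% to 41.1% in heads and thoraces, with no overlap. The chance of a call rose with the level, from 21.2% of genes in the lowest of 4 equal classes of mean level to 78.5% in the highest, and the median standard error of the log2 fold change fell from 0.82 to 0.0943.

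**Figure D2:**
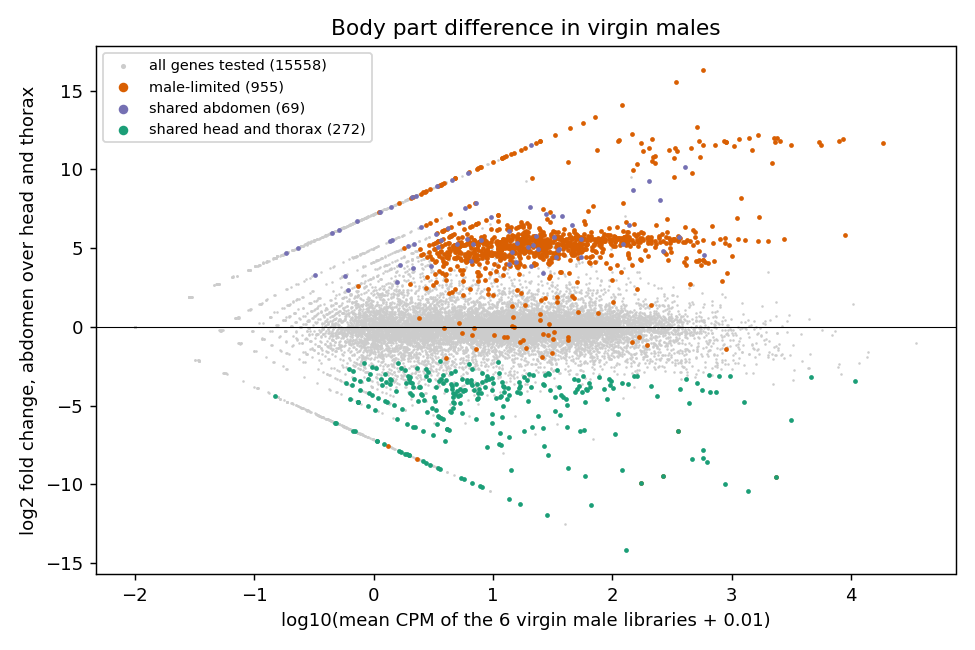
Log2 fold change of abdomen over head and thorax in virgin males (y axis) against the mean level of each of 15558 genes (x axis, log10 of CPM + 0.01), with 3 gene lists in colour. Male-limited genes form a band near their median of 5.23, with a second group above 10, and the straight diagonal edges are genes with no count in one body part, whose fitted fold depends on the fit. The shared head and thorax genes lie below 0.

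Few genes that reached 1 CPM in all libraries of a body part had no count at all in the other. At least 1 CPM in all 3 libraries was reached by 12088 genes in the abdomen and by 11330 in the head and thorax, and by 10381 in all 6 libraries. Genes at this level in the abdomen with no count in any head and thorax numbered 108, and 48 genes showed the reverse. The most abundant of the 108 stood at 1138 CPM and that of the 48 at 259 CPM. Without head and thorax replicate 1 the abdominal number rose from 108 to 390. A count of 0 shows only that a gene was not detectable at this depth.

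The genes named for the body part comparison were, in each direction, the called gene with the largest fold and the called gene with the highest level. TR71873|c3_g2 was the most abundant gene of the male abdomen, at 40254, 35942 and 34487 CPM in the 3 abdomens and 15.4, 9.19 and 9.88 CPM in the heads and thoraces. The deposited tables disagreed on this gene: the gene table gave it 328951, 328811 and 290412 counts in the 3 abdomens whereas in the transcript table it had 2.56, 4.2 and 5, so its level rests on the gene table alone. There it took 3.69% of normalised abdominal counts (log2 fold change 11.65, SE 0.826, adjusted p = 6.53e-10, edgeR), and its head and thorax level was near that of virgin females, which had 9.91 ± 6.69 CPM in the abdomen and 9.97 ± 2.39 CPM in the head and thorax (SD, n = 3 each). TR72121|c2_g17 had the largest fold, with 3720, 2989 and 3186 CPM in abdomens against 0.736, 0.533 and 0.859 CPM in heads and thoraces (log2 fold change 12.16, SE 0.625, adjusted p = 6.06e-12). Neither gene was raised in head and thorax replicate 1 to the 6.19% seen at most male-limited genes, and both groups of libraries were far apart.

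On the other side, TR32548|c0_g1 had the largest fold. It stood at 1.71, 1.97 and 2.14 CPM in the abdomens and 2767, 2609 and 2770 CPM in the heads and thoraces (log2 fold change -10.44, SE 0.151, adjusted p = 1.83e-19). This gene also separated the body parts of virgin females, at 0.764 ± 0.0966 CPM in the abdomen and 811 ± 108 CPM in the head and thorax. The most abundant gene higher in the head and thorax, TR36313|c1_g2, was abundant everywhere. Its levels were 24922, 22444 and 21435 CPM in abdomens and 50443, 44764 and 47363 CPM in heads and thoraces, about a doubling without overlap (log2 fold change -1.05, SE 0.0707, adjusted p = 2.44e-10).

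**Figure D3:**
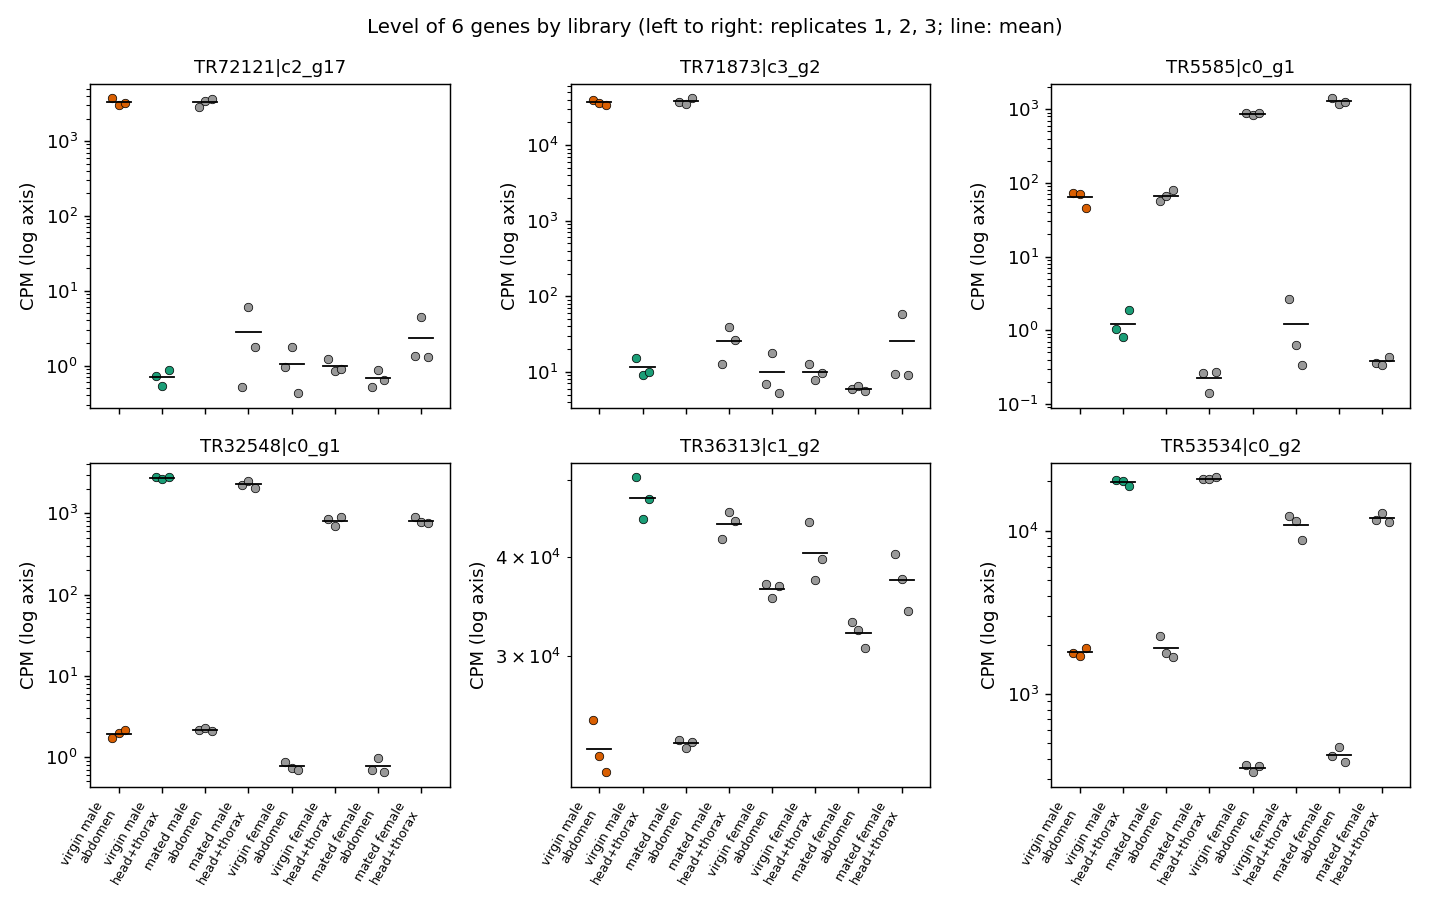
Level (CPM, log axis) of 6 genes in all 24 libraries, 3 points per group with a line at the mean; virgin male abdomens are orange, virgin male heads and thoraces green, and all other groups grey. TR71873|c3_g2 and TR72121|c2_g17 are high only in the male abdomen groups shown, TR5585|c0_g1 is high in abdomens of both sexes and highest in females, and TR32548|c0_g1 and TR53534|c0_g2 are high in all heads and thoraces.

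Male-limited genes made up a large part of the abdominal RNA. In virgin male abdomens the 955 genes summed to 324672, 306910 and 303582 CPM, or 31.2 ± 1.13% of normalised counts (SD, n = 3), and in heads and thoraces to 19187, 10754 and 11032 CPM. The groups did not overlap (exact two-sided permutation test, p = 0.1, the smallest that 3 against 3 libraries allow). Of the 955, 910 were called higher in the abdomen, 17 higher in the head and thorax and 28 were not called, against 27.2% and 25% over all genes tested. Without replicate 1 of the head and thorax 912 were called higher in the abdomen. The median log2 fold change of the list was 5.23, against 0 over all genes tested, and 8.18 without that library. In mated males it was 8.29. With genes of no count in the head and thorax set at their floor these medians were 5.22, 7.32 and 7.46.

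The 17 members higher in the head and thorax held much of what the male-limited list summed to there. They summed to 8333, 8787 and 8377 CPM in the 3 virgin male heads and thoraces and to 1187, 1093 and 751 CPM in the abdomens. These 17 were not limited to males in the head and thorax. Female heads and thoraces held 4732 ± 1161 CPM of them in virgins and 4636 ± 629 CPM in mated beetles (SD, n = 3 each). The other 938 members summed to 10854, 1967 and 2655 CPM in the heads and thoraces, so that the excess of replicate 1 lay among these. TR44291|c4_g1, singled out after its values were seen, was the largest of the 17, at 4630, 5208 and 4161 CPM in heads and thoraces and 2.69, 14.4 and 1.90 CPM in abdomens. Female heads and thoraces had 3597 ± 975 CPM of this gene in virgins and 3561 ± 508 CPM in mated beetles. It entered the list through its level in mated male abdomens, 64.04 ± 97.6 CPM (SD, n = 3), a spread wider than its mean. Without it the list summed to 14557, 5546 and 6870 CPM in virgin male heads and thoraces.

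Genes that marked the body parts of the other beetles marked them in virgin males too. A list of 69 shared abdomen genes was called and at least 8-fold higher in the abdomen in mated males, virgin females and mated females. In virgin males 67 of the 69 were called higher in the abdomen and the other 2 were not called (median log2 fold change 5.54, or 5.27 with genes of no count at their floor). Without head and thorax replicate 1, 63 were called higher and the median was 6.35 (5.37 with the floor). They summed to 6731, 5521 and 6735 CPM in abdomens and 125, 69.4 and 204 CPM in heads and thoraces, where replicate 1 was in the middle (ratio of means 47.7, exact permutation p = 0.1). The most abundant member in the other beetles was TR5585|c0_g1, at 73.8, 70.3 and 46.0 CPM in virgin male abdomens and 1.03, 0.799 and 1.86 CPM in the heads and thoraces (log2 fold change 5.68, SE 0.361, adjusted p = 1.33e-10). In virgin female abdomens, which helped to choose it, it stood at 870 ± 35.4 CPM (SD, n = 3), far above the male abdomens.

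The mirror list held 272 shared head and thorax genes. Of these 263 were called higher in the head and thorax of virgin males and 9 were not called (median log2 fold change -4.19), and 261 were called without head and thorax replicate 1. Their sums were 73377, 72704 and 70281 CPM in heads and thoraces, or 7.21 ± 0.163% of normalised counts, and 4424, 4328 and 4473 CPM in abdomens. The 3 abdomens were alike in this measure, with median ratios per gene of 4.36% to 4.77% of the head and thorax level. Female abdomens, which helped to choose the list, held less of these genes, 1165 ± 52.3 CPM in virgins and 1322 ± 123 CPM in mated beetles. Female heads and thoraces also held less than those of virgin males, at 39052 ± 5311 CPM in virgins and 40210 ± 2267 CPM in mated beetles. The most abundant member, TR53534|c0_g2, stood at 1791, 1698 and 1907 CPM in abdomens and 20398, 19987 and 18794 CPM in heads and thoraces (log2 fold change -3.46, SE 0.126, adjusted p = 4.64e-14).

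**Figure D4:**
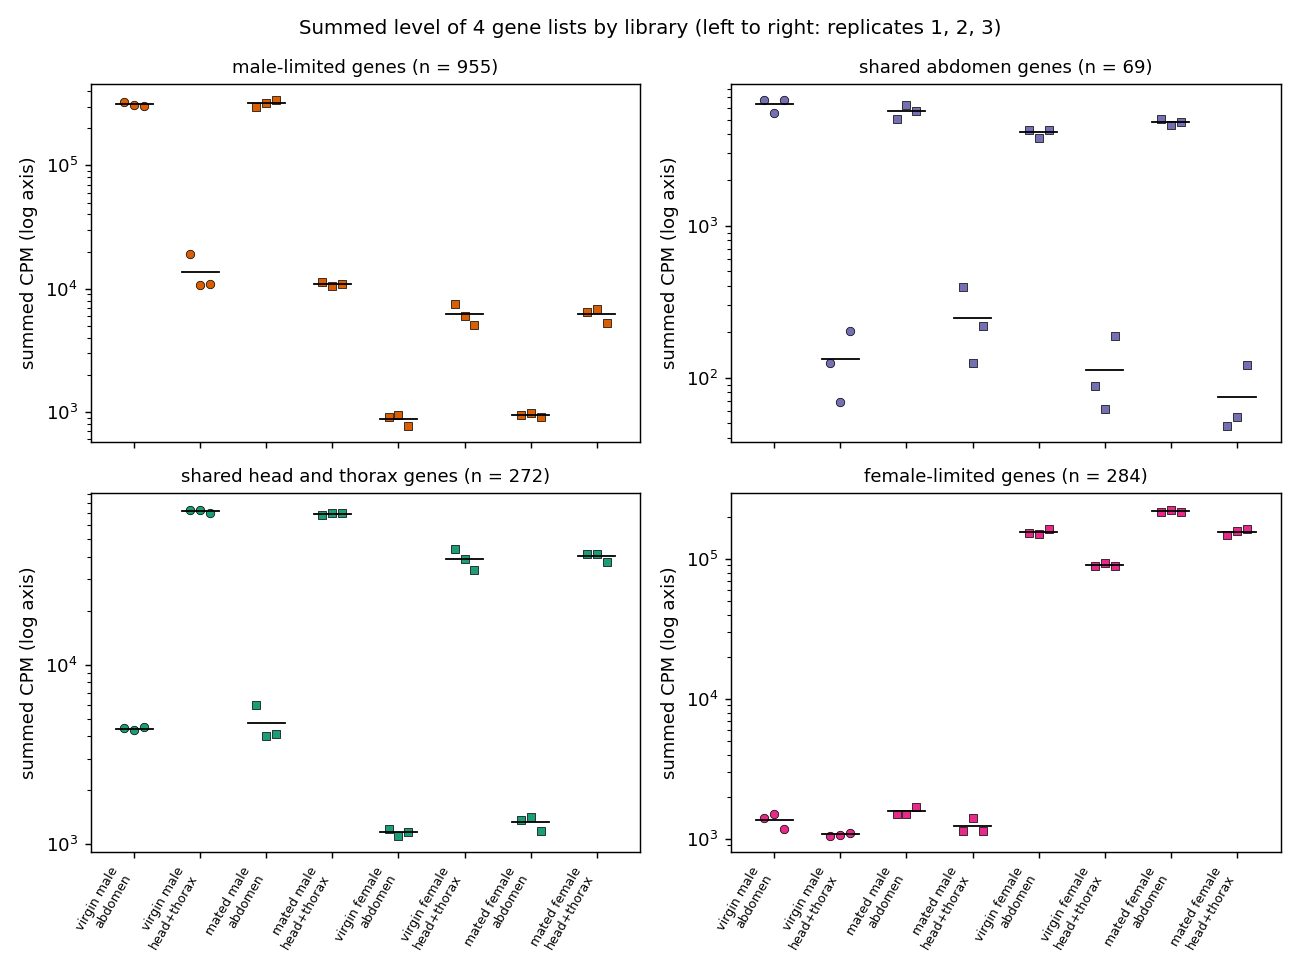
Summed CPM (log axis) of 4 gene lists in each of the 24 libraries, with 3 points per group in the order of the replicates and a line at the mean; round points are virgin males and squares the other groups. Male-limited genes in virgin male heads and thoraces show replicate 1 at 19187 CPM above replicates 2 and 3 (10754 and 11032 CPM), whereas shared head and thorax genes are level within each virgin male group.

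The remaining lists, also set without virgin male libraries, separated the body parts less. Of 3678 genes male-biased in mated abdomens (called, at least 2-fold), 1849 (50.3%) were higher in the virgin male abdomen, above the 27.2% of all genes tested, and 876 (23.8%) higher in the head and thorax, near the 25% of all genes (median log2 fold change 0.69). Without head and thorax replicate 1 these counts were 1823 and 828. Of 3011 genes female-biased there, 588 (19.5%) were higher in the abdomen, 562 (18.7%) in the head and thorax and 1861 were not called, both shares below those of all genes, with a median of 0.014. Without that library the counts were 556 and 503. The 284 female-limited genes, with at least 5 CPM in both groups of female abdomens and 16-fold or more below that in mated males, were low in both male body parts. They summed to 1366 ± 171 CPM in abdomens and 1079 ± 22.4 CPM in heads and thoraces, and 37 (13%) were called higher in the abdomen, against 20 (7.04%) in the head and thorax (34 and 22 without that library). The male libraries thus held few counts of genes that took 15.6% of normalised counts in virgin female abdomens.

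Sex bias in the head and thorax was followed too. Of 639 genes male-biased in mated heads and thoraces, 270 (42.3%) were higher in the virgin male head and thorax and 134 (21%) in the abdomen, against 25% and 27.2% of all genes tested, with a median of -0.41. Of 872 genes female-biased there the balance was the other way, with 63 (7.22%) higher in the head and thorax and 381 (43.7%) in the abdomen (median 0.60). Without head and thorax replicate 1 the counts were 260 and 125 for the first list, and 59 and 371 for the second. Among 829 genes that were even between the body parts of the other 3 sets of beetles (not called and under 1.5-fold in each), 42 (5.07%) were called higher in the virgin male abdomen and 100 (12.1%) in the head and thorax. The latter count rested partly on head and thorax replicate 1, since without it 36 and 60 were called. The even genes had a median of -0.087 and summed to 26388 ± 1052 CPM in abdomens and 28315 ± 1756 CPM in heads and thoraces.

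Gene IDs that share a stem (the part before the final gene number) tended to fall on the same side. Of 621 stems with at least 2 called genes, 438 had all of them in one direction and 183 had both directions. Of the 891 pairs of called genes within a stem 71.9% had the same direction, against 50.1% of all pairs of called genes. Whether reads shared by related IDs were split among them in the counting was not tested.

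Virgin and mated males, which share no library, had mostly the same genes called in the same direction. The largest abdominal folds were smaller in virgin males, as the medians of the male-limited list show, and near those of mated males once head and thorax replicate 1 was left out. In mated males 27.8% of genes were called higher in the abdomen and 23.5% higher in the head and thorax. Of the genes called higher in the abdomen of virgin males 89.2% were called the same way in mated males, and of those higher in the head and thorax 82.3%. These are 87.6% of either mated male class. Across the 15558 genes the log2 fold changes had a Spearman correlation of 0.796, a description across genes that are not independent replicates. The test of the difference itself, the mating-by-body-part interaction, called 3 genes (0.0193%), with 1451 at an unadjusted p under 0.05. None of the 955 male-limited genes was among the 3, so the smaller folds of that list rest on its medians alone. DESeq2 called 62 in the same comparison, and leaving out 1 of the 12 male libraries in turn gave between 0 and 10.

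All 3 called genes are described, though their calls depend on single libraries. TR8464|c3_g6 was higher in the abdomen in virgin males, at 808, 811 and 819 CPM against 117, 123 and 145 CPM in the head and thorax, and less so in mated males (596 ± 28.7 against 154 ± 8.56 CPM; interaction log2 0.72, SE 0.0975, adjusted p = 0.0113, edgeR). TR44314|c1_g4 was lower in the abdomen in virgin males, at 85.7, 75.4 and 75.6 against 161, 162 and 146 CPM, whereas mated males had 215 ± 20.4 and 242 ± 13.6 CPM (interaction log2 -0.82, SE 0.126, adjusted p = 0.0194). The third, TR10061|c1_g2, lay outside the naming rule because the virgin male groups overlapped, at 481, 293 and 261 CPM in abdomens and 205, 447 and 155 CPM in heads and thoraces (interaction log2 -3.12, SE 0.476, adjusted p = 0.0194). All 3 calls ended without mated male abdomen replicate 1 (adjusted p = 0.0598 for each), without mated male head and thorax replicate 2 and without virgin male abdomen replicate 3. Those of TR44314|c1_g4 and TR10061|c1_g2 also ended without virgin male abdomen replicate 2 or mated male head and thorax replicate 1. All 3 also ended with a replicate block (adjusted p = 0.0722, 0.261 and 0.261), so the 1 gene called there was another, and with only the libraries of the contrast (0.222, 0.222 and 0.343). Over all 24 alternatives the adjusted p of the 3 genes ran from 8.46e-10 to 0.343.

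Virgin males and virgin females divided their genes between the body parts quite differently. The sex-by-body-part interaction, which tests whether the body part difference of virgin males differs from that of virgin females, called 7651 of 15558 genes (49.2%). In 3097 (19.9%) the abdomen was more favoured in males and in 4554 (29.3%) more favoured in females. Which direction had more genes was not stable. The split was 3936 and 3486 under DESeq2's size factors, 4413 and 3625 in DESeq2 itself, 2682 and 5169 under library size only, and 4835 and 2459 when the 10 most abundant genes were dropped. Leaving out any 1 of the 3 virgin female abdomens turned it as well, to 4676 and 2308, 4597 and 2268, and 4676 and 2317, and moved the median interaction of all genes from -0.11 to between 0.37 and 0.39. In the body part comparison itself, dropping the 10 most abundant genes gave 5222 genes higher in the abdomen, against 2988 in the head and thorax, and moved the median of all genes from 0 to 0.18. Genes whose direction turned between the sexes were fewer. Called higher in the abdomen in males and higher in the head and thorax in females were 350 genes, with medians of 0.80 and -0.79, and 914 genes showed the reverse, with medians of -0.52 and 0.72. This balance turned as well: without virgin female abdomen replicate 1, 2 or 3 the former count was 802, 759 and 791 and the latter 303, 293 and 294.

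In virgin females 37.7% of genes were called higher in the abdomen and 24.5% higher in the head and thorax. Of the 4239 genes higher in the abdomen of virgin males, 2169 (51.2%) were called the same way in virgin females, where they were 37% of that class. Of the 3894 higher in the head and thorax, 2283 (58.6%) were called the same way, or 60% of the female class. Across all genes the Spearman correlation of the log2 fold changes was 0.390, against 0.796 with mated males, and the difference between these correlations was not tested. Interaction genes that were higher in the female abdomen and not called in males numbered 2090, and between 1173 and 1208 without 1 of the virgin female abdomens.

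**Figure D5:**
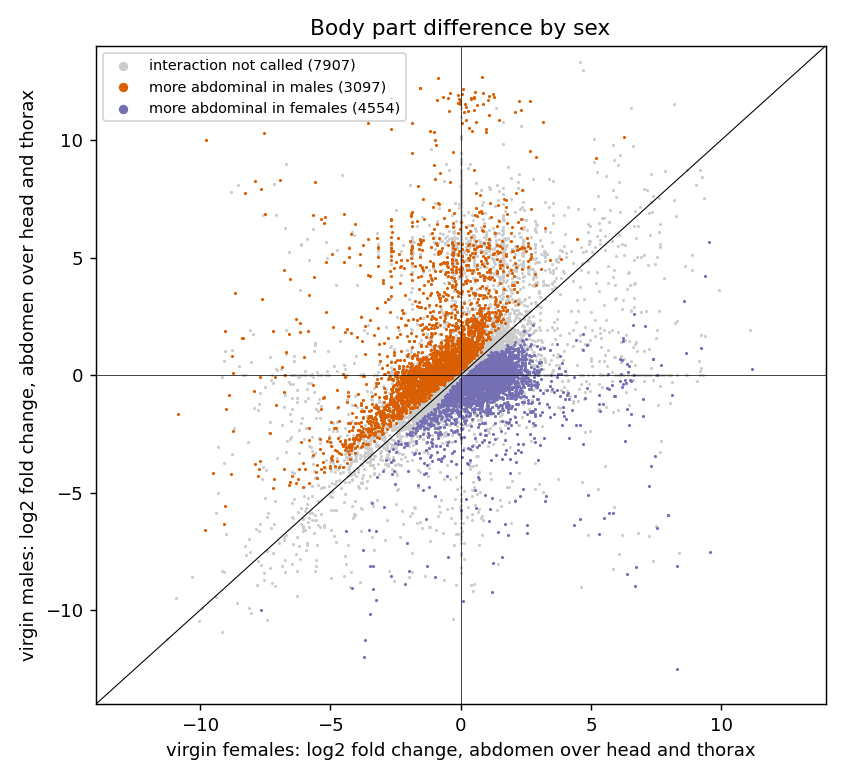
Log2 fold change of abdomen over head and thorax for 15558 genes in virgin males (y axis) against virgin females (x axis), coloured by the sex-by-body-part interaction; the diagonal marks equal differences. Genes more abdominal in males (3097) include a column near 0 in females with large differences in males. Of the 4554 genes more abdominal in females, 2090 were higher in the female abdomen and not called in males (male median -0.037).

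Genes biased in the abdomens of mated beetles, whose libraries the interaction does not use, followed their bias. Of 3678 genes male-biased in mated abdomens 2007 were called more abdominal in males and 8 more abdominal in females, against 19.9% and 29.3% over all genes. Of 3011 female-biased genes 42 were called more abdominal in males and 2129 in females. Bias in mated heads and thoraces gave counts in the same directions by sex: of 639 male-biased genes 236 were called more abdominal in males and 73 in females, and of 872 female-biased genes 139 and 363. The male-limited and shared lists were chosen with virgin female libraries, so their interaction counts are a description only. Of the 955 male-limited genes 355 were called more abdominal in males, 593 without head and thorax replicate 1, and none more abdominal in females. Among the 272 shared head and thorax genes 60 (22.1%) were called as relatively more abdominal in males, near the 19.9% of all genes. The 16 (5.88%) more abdominal in females were below the 29.3% of all genes. Of the 69 shared abdomen genes 6 (8.7%) were called more abdominal in males and 2 (2.9%) in females, both below the shares of all genes.

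Both genes with the largest interaction towards males were abundant in male abdomens and near 1 CPM elsewhere in virgins. TR23201|c0_g1 was measured at 4651, 4738 and 5067 CPM in virgin male abdomens and 1.47, 1.07 and 1.00 CPM in heads and thoraces, with 1.40 ± 0.555 and 1.86 ± 0.630 CPM in the body parts of virgin females (interaction log2 12.39, SE 0.884, adjusted p = 2.98e-09). TR23149|c4_g8 followed with 5535, 4767 and 4767 CPM in abdomens against 2.35, 0.799 and 1.15 CPM (interaction log2 12.25, SE 0.97, adjusted p = 1.00e-08). Female levels of this gene were 1.25 ± 0.628 and 1.74 ± 0.428 CPM.

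Towards females, the named genes were low in male abdomens. TR42666|c2_g1 stood at 0.979, 1.42 and 0.594 CPM in virgin male abdomens and 1.91, 2.80 and 2.43 CPM in heads and thoraces, a body part difference that did not pass the test (adjusted p = 0.0819). Virgin females had 69.3 ± 10.5 CPM in the abdomen and 1.72 ± 1.79 CPM in the head and thorax (interaction log2 -6.55, SE 0.707, adjusted p = 3.86e-07). TR48655|c0_g1 was lower in the abdomen in males, with 0.489, 0.328 and 0.594 CPM against 13.4, 14.3 and 15.5 CPM, and slightly higher in the abdomen in females, with 17.1 ± 1.64 against 11.6 ± 2.37 CPM (interaction log2 -5.47, SE 0.285, adjusted p = 4.84e-11).

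The mix of transcripts within a gene also differed between the body parts of virgin males. Of 6341 genes with at least 2 transcripts tested, 663 (10.5%) were called by both edgeR and limma, and 791 (12.5%) by edgeR in all. Of the 663, 243 (36.7%) were also higher in the abdomen in level, 279 (42.1%) higher in the head and thorax and 141 (21.3%) not called in level. Among all 6341 genes these shares were 31.9%, 32.7% and 35.4%. Among those at 10 CPM or more in all 6 libraries, 487 genes, the transcript that moved most changed its share by a median of 22.3 percentage points, and in 271 by at least 20 points. In 84 genes called by both tools the dominant transcript was one in all 3 abdomens and another in all 3 heads and thoraces. Among all 3655 genes tested at 10 CPM or more, called or not, 120 had such a difference. Without any 1 of the 6 libraries between 526 and 613 genes were called by both tools.

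The largest such change was in TR7953|c1_g3, a gene of moderate level in both parts (25.2, 24.6 and 27.2 CPM in abdomens; 15.7, 18.8 and 16.9 CPM in heads and thoraces). Its transcript i3 had no count in any virgin male abdomen, 0 of 660 counts of the gene over the 3 libraries, which allows a share of up to 0.455% (counting error only). It took 88.4%, 87.7% and 100% of the gene's counts in the heads and thoraces (adjusted p = 2.73e-07, edgeR, and 3.74e-10, limma). In the abdomens transcript i1 took all of them. Mated males showed a similar contrast, with no count of i3 in abdomens and 74.2 ± 14.1% in heads and thoraces (SD, n = 3). Females showed the same direction. Transcript i3 took 2.95 ± 2.61% in virgin female abdomens and had no count in mated female abdomens. In their heads and thoraces it took 50.9 ± 21.35% and 69.5 ± 24.1%.

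TR54108|c1_g5, with the next largest change, was also the second most abundant male-limited gene in mated male abdomens. Its level was 20508, 14796 and 17335 CPM in virgin male abdomens and 234, 288 and 389 CPM in heads and thoraces (log2 fold change 5.85, SE 0.21, adjusted p = 4.40e-14). Different transcripts made up these levels. Transcript i4 stood at 16012, 11770 and 13585 CPM in abdomens and 3.63, 3.21 and 4.11 CPM in heads and thoraces. Transcript i2 stood at 125, 147 and 107 CPM in abdomens and 207, 257 and 344 CPM in heads and thoraces, and so took 0.738 ± 0.219% of the gene's counts in abdomens against 88.6 ± 0.483% in heads and thoraces (adjusted p = 6.42e-37, edgeR, and 0.0107, limma). In virgin females i2 was the main transcript in both parts, with shares of 90.7 ± 3.998% in abdomens against 95.7 ± 0.385% in heads and thoraces. The gene as a whole stood at 89.8 ± 21.2 CPM in virgin female abdomens. In their heads and thoraces it had 478 ± 12.2 CPM, above the level of virgin male heads and thoraces. The gene's head and thorax level in virgin males, lowest in replicate 1, consisted mainly of a transcript that took little of the gene's counts in their abdomens. Transcript tables lacked 6.55 ± 0.221% of the gene counts in virgin male abdomens and 1.46 ± 0.038% in heads and thoraces, so shares of transcripts are uncertain for genes that lost counts, which TR7953|c1_g3 and TR54108|c1_g5 did not.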

How the data were processed

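Libraries came from total RNA (RNeasy) and a strand-marking TruSeq mRNA kit, per the labels' protocols. The values deposited by the authors are estimated counts, not normalised, for 29812 genes and 58250 transcripts. Tools listed in the submitters' processing notes are Bowtie 0.12.6, Trimmomatic 0.3, cutadapt 1.2.1 and FastQC 0.11.2. Which program counted, on which reference and with which strand setting is not given in the sources used here, so counts of near-identical or overlapping genes are uncertain.

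Estimated counts were rounded to whole numbers (14.1% of values were not whole) and fitted with edgeR 4.0.16 in R 4.3.3: TMM scaling, the filterByExpr filter by group, 1 mean per group over all 24 libraries, and the robust quasi-likelihood test, with p-values adjusted by Benjamini and Hochberg's method over all 15558 genes tested and a threshold of 0.05. Standard errors were derived from F (absolute log2 value over the root of F). Transcript usage was tested with diffSpliceDGE of edgeR. On simulated counts this called more unchanged genes than its threshold allows, so limma 3.58.1 (voom and diffSplice) was added and genes called by both are given. On simulated gene counts the share of false calls of the level tests was below the threshold for body parts and slightly above it for both interactions. These counts gave abdomens the mean levels of heads and thoraces, with a small set of genes changed in virgin males. In the data far more genes differed, so the simulation does not show the share of false calls there. Summed levels were compared with exact permutation tests.

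Genes were named by rule among called genes that had a minimum of 3 counts in each of the contrast's libraries and no overlap of the virgin male groups: for body parts the largest fold and the highest level in each direction, for each interaction the 2 most positive and 2 most negative, for usage the 2 largest changes at 10 CPM or more, and the most abundant members of lists (2 for the male-limited list). The comparison, lists and rules were chosen with earlier results of these data known. Same-numbered libraries of the 2 body parts are not said to come from the same beetles, so no block was used. Alternatives covered scaling, low-count filters, DESeq2 1.42.0, limma-voom, robust estimation, the libraries fitted, a replicate block, the transcript table, list limits, abundant genes and each library left out in turn.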

Additional observations from a re-analysis of the deposited data

Results flagged for a closer look

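Differences between groups under the same contrast were found by interaction tests (edgeR, adjusted p at most 0.05), in which virgin males were set against virgin females or mated males. Between virgin males and virgin females, 7651 genes differed in their body part difference. The 4 genes named there by rule were TR23201|c0_g1 (interaction log2 12.39) and TR23149|c4_g8 (12.25), more abdominal in males, and TR42666|c2_g1 (-6.55) and TR48655|c0_g1 (-5.47), more abdominal in females. Between virgin and mated males 3 genes differed: TR8464|c3_g6 (interaction log2 0.72), TR44314|c1_g4 (-0.82) and TR10061|c1_g2 (-3.12). The calls of these 3 ended in 5, 7 and 7 of 24 alternatives, while those of the 4 genes that differed between the sexes held in each of 24.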

How the results depend on the processing

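The counts of genes higher in the abdomen and higher in the head and thorax stayed within 1.5 times of 4239 and 3894 in each of the 12 other settings, as did the 7651 genes of the sex interaction. With 1 library left out they ran from 3980 to 4202, from 3519 to 3662 and from 6865 to 7647. The mating interaction called 3 genes, but 62 with DESeq2, 1, none of these 3, with the replicate block, 5 without head and thorax replicate 3 of virgin females and replicate 1 of virgin males together, and 0 to 10 with 1 library left out; the cause was not tested. Genes with differing transcript usage numbered 791, but 342 with the Simes combination and 525 with the replicate block, and 624 to 707 with 1 library left out. In virgin males same-numbered abdomen and head and thorax libraries did not deviate together (correlations -0.0769 to -0.00684), and with the replicate block 3948 and 3613 genes were called by body part. The share of male-limited genes in the abdomen, 31.2%, was 28.8% with library size only, 29.9% with a list minimum of 50 CPM, 29.97% with a list fold of 64, 35.9% without the 10 most abundant genes and 30.5% to 31.6% with 1 library left out. Their head and thorax sum, 4.38% of the abdominal sum, was 1.38% with a list fold of 64 and ran from 2.42% (without mated male abdomen replicate 1) to 4.85% with 1 library left out; without virgin male head and thorax replicate 1 it was 3.49%. The log2 ratio of the summed shared abdomen genes, 5.58, was 4.77 and 6.65 with list folds of 4 and 16 and 5.27 to 6.02 with 1 library left out. That of the shared head and thorax genes, -4.03, was -2.96 and -5.76 with these folds, -3.98 with library size only and -4.05 to -4.02 with 1 library left out. The body part calls of the 7 genes named for it held in each of the 16 to 18 alternatives in which the gene was tested. TR71873|c3_g2 was not tested with the transcript table, where it had only 2.56, 4.2 and 5 counts in the virgin male abdomens. Its difference was therefore not found there. Depth limits low genes, since at 1 CPM a gene rests on fewer than 10 counts.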
